A study of Oryza sativa Indica Group with 6 samples.

Results

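Regulators of anther cell fate and of the tapetum were followed in young panicles of the rice *ssh1* mutant and the wild type. There were 8 of them, chosen by locus ID from the known pathway, and all 8 were found among the 55982 locus IDs measured. In the order in which anther development is known to call on them they are *MSP1* (LOC_Os01g68870, chromosome 1), *TDL1A* (LOC_Os12g28750, chromosome 12), *UDT1* (LOC_Os07g36460, chromosome 7), *GAMYB* (LOC_Os01g59660, chromosome 1), *TIP2* (LOC_Os01g18870, chromosome 1), *TDR* (LOC_Os02g02820, chromosome 2), *EAT1* (LOC_Os04g51070, chromosome 4), and *PTC1* (LOC_Os09g27620, chromosome 9). The RNA came from whole panicles of 0 to 4 cm, with 3 replicates of the *ssh1* mutant and 3 of the wild type, each a pool of plants. The wild type is YIL100, a line of the *indica* variety Teqing that carries segments of wild rice (*Oryza rufipogon*). The *ssh1* mutant, labelled SSH1-/-, was found among EMS-mutagenized YIL100 plants, so that both genotypes share the wild rice segments, and it carries a splicing mutation in *SNB*, a gene for an APETALA2-like transcription factor. It is a single mutant line.

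The anther begins as a small group of cells that divide into an outer wall and inner cells that will enter meiosis. The innermost wall layer, the tapetum, feeds the meiocytes and the young microspores, and later dies in a programmed way that releases material for the pollen coat. A receptor and its ligand first limit how many cells become sporogenous. A chain of basic helix-loop-helix (bHLH), MYB, and PHD-finger factors then brings the tapetum through differentiation, secretion, and death.

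Values are in FPKM, a number of sequenced fragments corrected for transcript length and library size, so that levels of different genes can be set side by side. Over all libraries, *ssh1* replicate 1 was the shallowest (-0.24 on the log2 scale relative to wild-type replicate 1) and *ssh1* replicate 3 the deepest (0.06). *SNB*, the mutated gene, had 7.97, 7.44, and 8.86 FPKM in *ssh1*, against 20.9, 16.9, and 18.0 FPKM in the wild type. The members *MSP1*, *UDT1*, *GAMYB*, and *TIP2* were above 1 FPKM in every sample, whereas *TDL1A*, *TDR*, *EAT1*, and *PTC1* averaged less than 1 FPKM over the 6 samples, and *TDL1A* and *EAT1* were listed at 0 in at least 1 of them.

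In *ssh1* the mean of each of the 8 regulators was below that of the wild type, as it was in 59.3% of all loci above 0 in any sample, and 0 of the 8 passed the thresholds of the study, an adjusted p under 0.001 together with a 2-fold change or more. The test was limma, a linear model per gene with variances moderated across genes, on log2(FPKM + 1) for the 18537 genes whose mean reached 1 FPKM, with Benjamini-Hochberg adjustment over all of them. Of these genes, 1.92% were lower and 3.19% higher in *ssh1* at those thresholds. The study applied the thresholds to another test, Cuffdiff, which works on reads and was not repeated here. The calls given here are therefore not those of the study. Only 4 of the 8 members reached the minimum mean and were tested, and 3 of the 4 had an unadjusted p below 0.05 in limma, beside 53.5% of all tested genes. At an adjusted p below 0.05, at any fold change, *MSP1* and *TIP2* were lower in *ssh1*, beside 28.0% of all tested genes (17.0% were higher). Every *ssh1* replicate lay below every wild-type replicate in 3 of the 4 tested members, as in 38.0% of tested genes. With 4 tested members and rules that so many genes pass, these counts do not set the members apart from the rest.

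**Figure D1:**
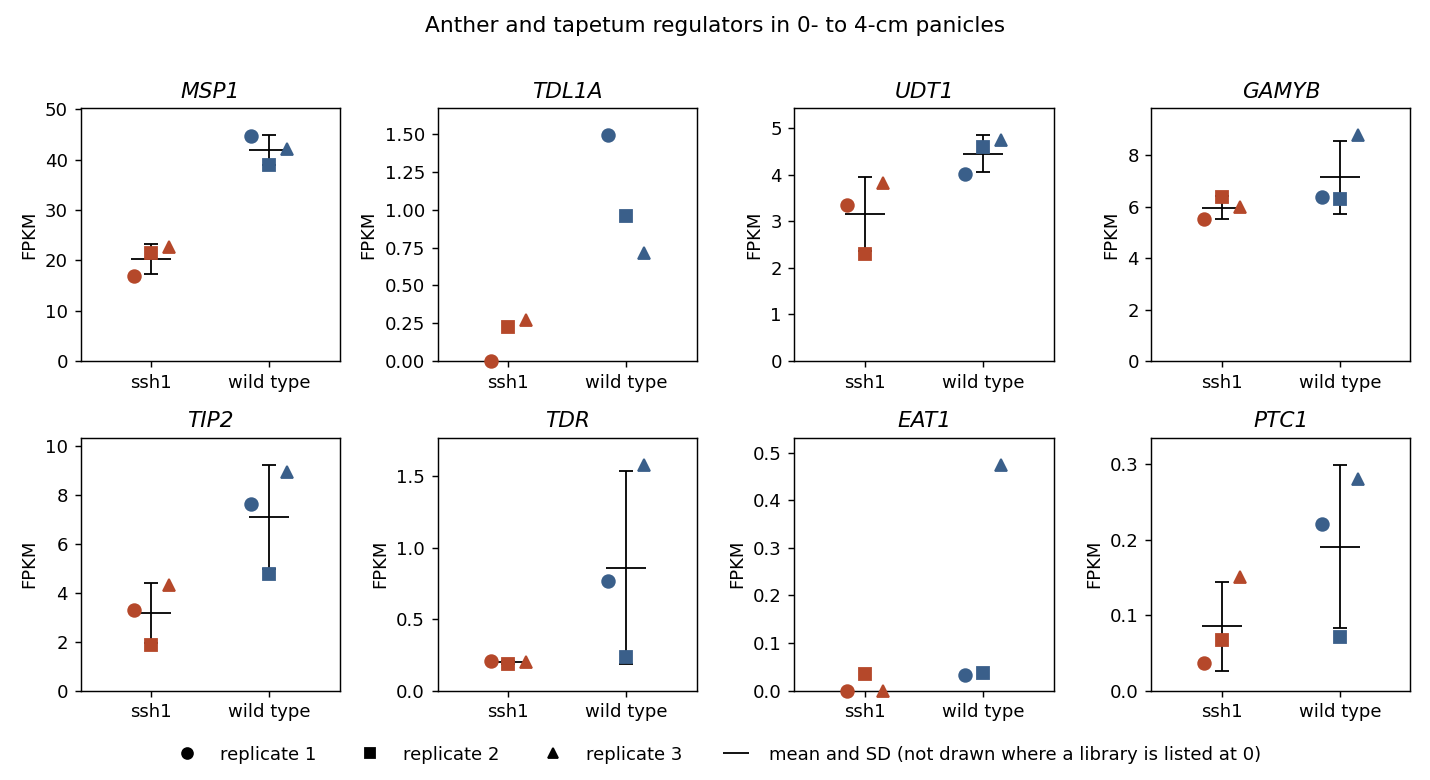
FPKM (vertical axis, from 0, with its own scale in each panel) of the 8 regulators in *ssh1* (left, red) and the wild type (right, blue). Each symbol is 1 replicate, and the black lines are the mean and SD of 3 replicates, left out where a library is listed at 0. In *MSP1* the *ssh1* values of 16.8 to 22.6 FPKM lie far from the wild-type values of 38.9 to 44.7 FPKM, while in *TDR* and *EAT1* the wild-type mean rests mostly on replicate 3.

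*MSP1* encodes a leucine-rich repeat receptor kinase that restricts the number of cells entering sporogenesis. It was the most abundant of the 8 in every sample, at 16.8, 21.4, and 22.6 FPKM in *ssh1* replicates 1, 2, and 3, against 44.7, 38.9, and 42.1 FPKM in those of the wild type. The highest *ssh1* value was thus well below the lowest wild-type value, and the spread within either genotype was small beside the gap. The means were 20.3 ± 3.04 FPKM in *ssh1* and 41.9 ± 2.9 FPKM in the wild type (SD, n = 3 each), a ratio of 0.484. On the log2 scale the limma fold change was -1.02 (standard error 0.12, 95% confidence interval -1.32 to -0.73, adjusted p = 0.00146), past the fold change threshold and just short of that for the adjusted p. The exact permutation test gave p = 0.1 for *MSP1*, the minimum for 3 against 3. The log2 fold change was -0.88 relative to the median of all tested genes, which was itself -0.14, and 6.59% of the tested genes had a log2 fold change as low or lower. The adjusted p of *MSP1* stayed between 0.000846 and 0.0128 over the settings tried with limma, always below 0.05, while the log2 fold change came to less than a factor of 2 after median-of-ratios scaling (-0.89), after rescaling to a common sum (-0.99), without *ssh1* replicate 1 (-0.90), and without wild-type replicate 1 (-0.97). In a whole panicle, fewer cells of a type and less RNA per cell cannot be told apart.

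*TDL1A* encodes the small secreted protein that binds the repeats of MSP1 as its ligand. It was listed at 0 in *ssh1* replicate 1 and at 0.225 and 0.271 FPKM in replicates 2 and 3, against 1.49, 0.958, and 0.713 FPKM in the wild type. The genotypes did not overlap, although all values were low. With a mean below 1 FPKM it was outside the main test. In the limma fit without a minimum mean, over 30210 loci, it came to -0.81 ± 0.17 (standard error) on the log2 scale, with an adjusted p of 0.019. Its size depends on the added 1 FPKM and was -2.28 with 0.1 FPKM added. In this wider fit *MSP1* (adjusted p = 0.00312) and *TDL1A* were the members below 0.05, so that the receptor and its ligand, 2 of the 8, were lower, beside 16.1% of all loci. The adjusted p of *TDL1A* was 0.019 to 0.0834 over the limma settings, and it came to 0.0538 without *ssh1* replicate 1, to 0.0554 without wild-type replicate 2, and to 0.0834 in the fit blocked on replicate number. The receptor was far above its ligand throughout. The *MSP1* level was 95.1 and 83.1 times that of *TDL1A* in *ssh1* replicates 2 and 3, against 29.9, 40.6, and 59.0 times in the wild type. In *ssh1* replicate 1, with *TDL1A* at 0, no ratio could be taken. On the log2(FPKM + 1) scale the pair differed by 4.19 in *ssh1* and 4.40 in the wild type on average. This is the other way from the ratios, and the genotypes were not separated (exact permutation test, two-sided, p = 0.2). The added 1 FPKM is large beside the *TDL1A* values, so this test cannot decide whether the ratio differed.

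*UDT1* and *GAMYB* act next, in parallel. *UDT1* encodes a bHLH factor needed for the tapetum to differentiate at all, and *GAMYB* a gibberellin-regulated MYB factor that works in the aleurone and the anther. *UDT1* had 3.35, 2.29, and 3.82 FPKM in *ssh1*, against 4.01, 4.59, and 4.75 FPKM in the wild type. The genotypes met closely, at 3.82 and 4.01 FPKM, without overlapping. The means were 3.15 ± 0.784 FPKM in *ssh1* and 4.45 ± 0.389 FPKM in the wild type (SD, n = 3 each), and the log2 fold change was -0.41 (standard error 0.17, 95% confidence interval -0.81 to -0.01, adjusted p = 0.0892 from limma).

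*GAMYB* had 5.52, 6.39, and 5.99 FPKM in *ssh1*, against 6.37, 6.28, and 8.77 FPKM in the wild type. The genotypes overlapped, and wild-type replicate 3 alone stood above the rest. The means were 5.96 ± 0.435 FPKM in *ssh1* and 7.14 ± 1.41 FPKM in the wild type (SD, n = 3 each), with a log2 fold change of -0.21 (standard error 0.14, 95% confidence interval -0.55 to 0.13, adjusted p = 0.252 from limma). Relative to the median of all tested genes it was -0.08, the smallest of the 4 tested members.

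*TIP2* encodes a bHLH factor needed for the inner wall layers, the tapetum among them, to differentiate, and it is known to regulate *TDR* and *EAT1*. It had 3.30, 1.87, and 4.33 FPKM in *ssh1*, against 7.60, 4.75, and 8.91 FPKM in the wild type. The genotypes did not overlap, but *ssh1* replicate 3 came close to wild-type replicate 2, and both genotypes were spread more widely than in *MSP1*. The means were 3.16 ± 1.23 FPKM in *ssh1* and 7.09 ± 2.13 FPKM in the wild type (SD, n = 3 each), a ratio of 0.446. The log2 fold change was -0.97 (standard error 0.29, 95% confidence interval -1.68 to -0.26, adjusted p = 0.0377 from limma), and 7.35% of the tested genes had one as low or lower. The adjusted p was above 0.05 when a single library was left out in 4 cases, at 0.0728 without *ssh1* replicate 1, 0.0677 without *ssh1* replicate 2, 0.114 without wild-type replicate 1, and 0.116 without wild-type replicate 3. Over all limma settings it was 0.00939 to 0.116, with 0.0523 after median-of-ratios scaling and 0.0697 without the minimum mean.

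**Figure D2:**
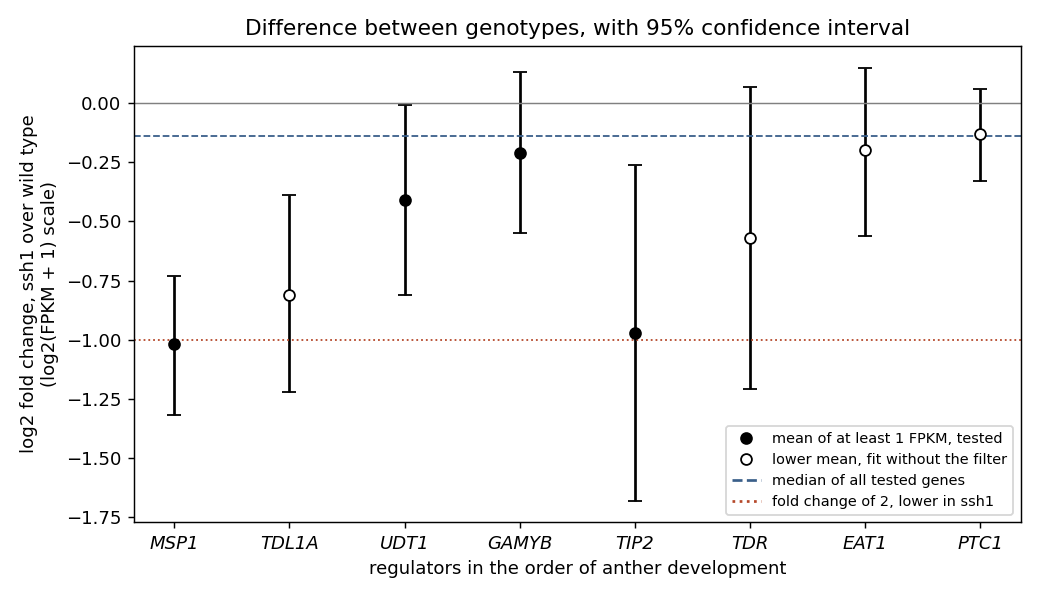
Log2 fold change of *ssh1* over the wild type on the log2(FPKM + 1) scale (vertical axis) for the 8 regulators in the order of anther development (horizontal axis), with bars for the 95% confidence interval from limma. Filled points are the 4 tested members and open points the 4 of low mean, taken from the fit without a minimum mean, where the added 1 FPKM pulls the value toward 0. The values of *MSP1* (-1.02) and *TIP2* (-0.97) lie near the dotted line of a fold change of 2, and that of *GAMYB* (-0.21) near the dashed line of the median of all tested genes (-0.14).

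The last members, *TDR*, *EAT1*, and *PTC1*, belong to the late tapetum. *TDR* encodes a bHLH factor that promotes tapetum degeneration, *EAT1* a bHLH factor that acts with TDR in programmed cell death, and *PTC1* a PHD-finger protein that controls the same death and pollen development. Their FPKM values were so low that they were whole multiples of a single step in each library. For these members the smallest whole numbers of fragments in the observed proportions could therefore be read off, all within 0.0112 of a whole number after allowing for depth. The true numbers may be a multiple of these. The values of *TDL1A* gave no such whole numbers.

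*TDR* had 0.210, 0.189, and 0.199 FPKM in *ssh1*, against 0.771, 0.233, and 1.58 FPKM in the wild type. These correspond to 6, 6, and 7 fragments in *ssh1*, against 26, 7, and 48 fragments in the wild type. The 3 *ssh1* libraries were thus nearly equal, while the wild-type libraries differed several-fold among themselves and replicate 2 stood at the *ssh1* level. The genotypes did not overlap in FPKM, but 7 fragments in *ssh1* replicate 3 and 7 in wild-type replicate 2 cannot be told apart. Without a minimum mean, limma gave -0.57 ± 0.26 (standard error) on the log2 scale, with an adjusted p of 0.174. It was -0.30 without wild-type replicate 3 (adjusted p = 0.278 from limma) and -0.83 without wild-type replicate 2 (adjusted p = 0.0377 from limma). Its size thus depended on single wild-type libraries, and its side of 0.05 on replicate 2. The size depended on the added 1 FPKM too, and was -1.40 with 0.1 FPKM added (adjusted p = 0.146 from limma).

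*EAT1* was listed at 0 in *ssh1* replicates 1 and 3 and at 0.0348 FPKM in replicate 2, against 0.0328, 0.0369, and 0.474 FPKM in the wild type. In fragments this was 0, 1, and 0 in *ssh1*, against 1, 1, and 13 in the wild type. Wild-type replicate 3 held 86.7% of the wild-type fragments of *EAT1*, and the other libraries of either genotype held 0 or 1 of these smallest whole numbers. The limma estimate without a minimum mean was -0.20 on the log2 scale (adjusted p = 0.371), and -0.03 without wild-type replicate 3. With so few fragments it depends on the added 1 FPKM and is not a measure of fold.

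*PTC1* had 0.0373, 0.0671, and 0.151 FPKM in *ssh1*, against 0.221, 0.071, and 0.281 FPKM in the wild type. The fragments numbered 1, 2, and 5 in *ssh1*, against 7, 2, and 8 in the wild type. The genotypes overlapped at wild-type replicate 2. The limma estimate without a minimum mean was -0.13 on the log2 scale (adjusted p = 0.286), -0.21 without wild-type replicate 2, and -0.08 without wild-type replicate 3. With 0.1 FPKM added it was -0.62 (adjusted p = 0.316 from limma), so that its size depends on the added 1 FPKM. Counted over all 8 members, every *ssh1* replicate was below every wild-type replicate in 5, beside 27.4% of all loci above 0 in any sample, and *GAMYB*, *EAT1*, and *PTC1* were the 3 that overlapped.

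**Figure D3:**
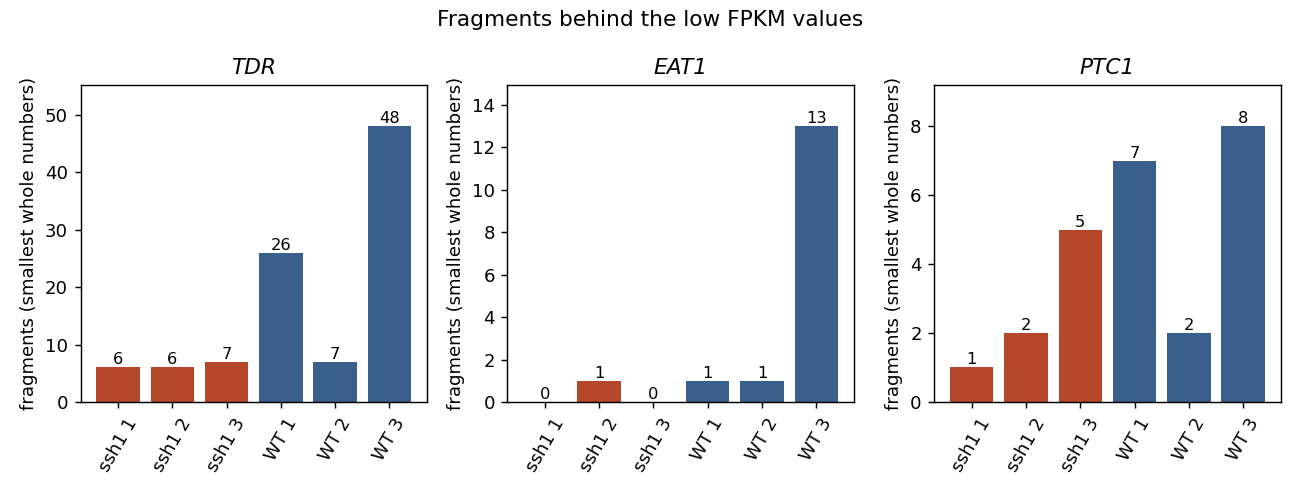
Smallest whole numbers of fragments (vertical axis, from 0, with its own scale in each panel) that fit the FPKM values of *TDR*, *EAT1*, and *PTC1* in the 3 *ssh1* libraries (red) and the 3 wild-type (WT) libraries (blue). Wild-type replicate 3 has the tallest bar in each panel, with 48, 13, and 8 fragments, and wild-type replicate 2 stands at 7, 1, and 2 fragments.

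The members also differed among the replicates of 1 genotype. Wild-type replicate 3 was the highest of the 3 wild-type libraries in 6 of the 8 members, *MSP1* and *TDL1A* being the exceptions, and wild-type replicate 2 was the lowest in 5. In *GAMYB*, *TIP2*, *TDR*, and *PTC1*, wild-type replicate 3 was the highest and replicate 2 the lowest. Among the *ssh1* libraries, replicate 3 was the highest in 5 of the 8 members.

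The order of levels in the wild type was *MSP1*, then *GAMYB* and *TIP2*, which overlapped, then *UDT1*, then *TDL1A* and *TDR*, which overlapped, and last *PTC1* and *EAT1*, which overlapped with each other and with *TDR*. The highest *UDT1* value and the lowest *TIP2* value in the wild type were both 4.75 FPKM. In *ssh1* the order was *MSP1*, *GAMYB*, then *UDT1* and *TIP2*, which overlapped, then *TDR*, *PTC1*, and *EAT1*, which did not overlap, while the values of *TDL1A* spanned those of all 3. *TIP2* stood at 0.597, 0.293, and 0.722 times the *GAMYB* level in *ssh1*, against 1.19, 0.756, and 1.02 times in the wild type. It was below *GAMYB* in all 3 *ssh1* libraries and above it in 2 of the 3 wild-type libraries. Against *UDT1*, *TIP2* stood at 0.982, 0.819, and 1.13 times in *ssh1* and at 1.90, 1.03, and 1.88 times in the wild type. *MSP1* stood at 3.05, 3.35, and 3.77 times the *GAMYB* level in *ssh1*, against 7.02, 6.20, and 4.79 times in the wild type. For *MSP1* and for *TIP2* relative to *GAMYB*, the genotypes did not overlap (exact permutation test, two-sided, p = 0.1 each, on the log2 difference). This is the smallest p that 3 replicates against 3 can give, and 8 such ratios were computed, so that none could pass 0.05.

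The other genes of the pathway were taken as lists of loci compiled from general knowledge of rice. The deposited files do not pair locus IDs with names, and these loci are therefore given by ID and list only. Of the 10 loci listed as other anther regulators, 5 were tested and 0 passed the thresholds in limma. An unadjusted p below 0.05 was found for 2 of the 5, beside 53.5% of all tested genes. At an adjusted p below 0.05, 2 were lower and 0 higher, beside 28.0% lower and 17.0% higher of all tested genes. Of the 4 others above 0, 1 was lower and 0 higher at that limit in the fit without a minimum mean. In that fit 16.1% of all loci were lower and 10.1% higher. This was LOC_Os01g11430, named after its values were seen, with 0.0826, 0.186, and 0.0335 FPKM in *ssh1*, against 0.805, 0.629, and 1.32 FPKM in the wild type (adjusted p = 0.0124 from limma). For the 5 tested loci the median log2 fold change was -0.40, that of the 4 tested members -0.69, and that of all tested genes -0.14. Of the 17 loci listed as tapetum and pollen wall products, 6 were tested. Of these 6, 1 fell past the thresholds, beside 1.92% of all tested genes. It was LOC_Os10g33250, with 24.1, 21.3, and 25.6 FPKM in *ssh1*, against 57.5, 55.1, and 53.6 FPKM in the wild type (log2 fold change -1.20, standard error 0.08, adjusted p = 0.000283 from limma). At an adjusted p below 0.05, 5 of these 6 were lower and 0 higher, beside 28.0% and 17.0% of all tested genes. Their log2 fold changes ran from -2.31 to -0.32, with a median of -0.99, so that LOC_Os10g33250 was not the largest fall. The call of LOC_Os10g33250 was lost without any 1 of the wild-type replicates or without *ssh1* replicate 1, where its log2 fold change was between -1.22 and -1.17. Of the rest of the 17, 11 were below the minimum mean, and 2 of these were listed at 0 in every sample. In the fit without a minimum mean, 1 of the remaining 9 was higher and 0 lower at an adjusted p below 0.05, beside 10.1% of all loci higher and 16.1% lower. This was LOC_Os04g57490, likewise named after its values were seen, with 1.27, 0.735, and 0.738 FPKM in *ssh1*, against 0.154, 0.173, and 0.0857 FPKM in the wild type (adjusted p = 0.00879 from limma).

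Of the 10 meiocyte loci, all of which were tested, 1 fell past the thresholds, beside 1.92% of all tested genes. This was LOC_Os03g01590, with 2.36, 2.52, and 2.90 FPKM in *ssh1*, against 8.34, 8.34, and 6.39 FPKM in the wild type (log2 fold change -1.27, standard error 0.13, adjusted p = 0.000908 from limma), and its call was lost when any 1 replicate was left out, at a log2 fold change of -1.38 to -1.21, and also after median-of-ratios scaling (-1.16, adjusted p = 0.0011 from limma), after quantile normalization, with a minimum mean of 5 FPKM, without a minimum mean, and in the fit blocked on replicate number. At an adjusted p below 0.05, 4 of the 10 were lower and 0 higher, beside 28.0% and 17.0% of all tested genes. The median log2 fold change was -0.34, beside -0.14 for all tested genes.

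**Figure D4:**
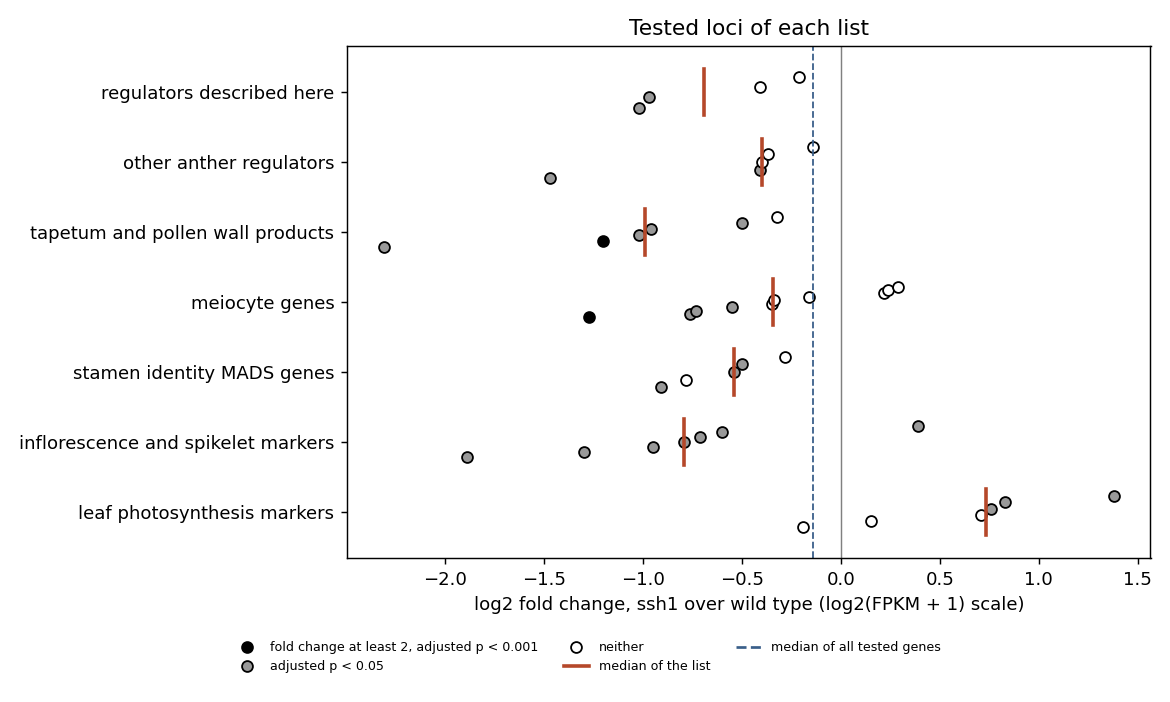
Log2 fold change of *ssh1* over the wild type on the log2(FPKM + 1) scale (horizontal axis) for the tested loci of each list (rows), 1 point per locus, shifted vertically for clarity. Black points passed the thresholds of the study, grey points an adjusted p below 0.05, and open points neither. The red bar is the median of the list, -0.69 for the regulators described here, and the dashed line that of all tested genes, -0.14. The median is below the dashed line in every list but that of the leaf photosynthesis markers (0.74).

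Markers of other parts of the panicle were read beside these results, with 28.0% of all tested genes lower and 17.0% higher at an adjusted p below 0.05. Of the 5 stamen identity MADS loci, 3 were lower in *ssh1* and 0 higher at an adjusted p below 0.05 (log2 fold changes of -0.91 to -0.28, median -0.54), and their summed level was 107 to 123 FPKM in *ssh1*, against 156 to 189 FPKM in the wild type. Of the 7 tested inflorescence and spikelet markers, 6 were lower and 1 higher, and they summed to 414 to 491 FPKM over the whole list in *ssh1*, against 625 to 749 FPKM in the wild type. Of the 6 leaf photosynthesis markers, 3 were higher and 0 lower, the other 3 overlapped between the genotypes, and their sum, which overlapped too, was 275 to 572 FPKM in *ssh1*, against 241 to 363 FPKM in the wild type. In these 3 lists 0 loci passed the thresholds of the study in limma, 4 stamen, 7 inflorescence, and 3 leaf loci had an unadjusted p below 0.05, beside the 53.5% of all tested genes, and 0 were listed at 0 in every sample. The part of these markers in the differences of *MSP1* and *TIP2* was not tested.

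The mean log2(FPKM + 1) of the 5 stamen identity loci was 4.06, 4.32, and 4.37 in *ssh1*, against 4.97, 4.58, and 5.0 in the wild type, a difference of -0.60. Taken relative to this mean in the same library, a scale chosen after the data had been seen, the difference of every gene moves up by the same amount. *MSP1* then stood at 0.10, 0.17, and 0.19 in *ssh1*, against 0.54, 0.74, and 0.43 in the wild type, a difference of -0.42 without overlap (p = 0.1 by the exact permutation test, the minimum). The difference of *TIP2* was -0.36 with overlapping values (exact permutation test, p = 0.4). *UDT1* and *GAMYB*, whose differences in log2(FPKM + 1) were smaller than that of the stamen loci, had positive differences on this scale by its construction. *GAMYB* stood at -1.35, -1.43, and -1.57 in *ssh1*, against -2.09, -1.71, and -1.71 in the wild type. Its difference of 0.39 was without overlap too (exact permutation test, p = 0.1). The values of *UDT1* overlapped (difference 0.19, exact permutation test, p = 0.5).

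Over the 6 samples, the locus of the other lists whose log2(FPKM + 1) was most like that of *MSP1* was LOC_Os08g07760, a listed anther regulator (Pearson's r = 0.995). It had 40.5, 43.9, and 46.7 FPKM in *ssh1*, against 59.6, 55.7, and 59.2 FPKM in the wild type, a log2 fold change of -0.41 beside -1.02 for *MSP1*. For *UDT1* it was LOC_Os07g05630 (r = 0.98), also a listed anther regulator, with 3.34, 1.03, and 4.89 FPKM in *ssh1*, against 8.36, 10.3, and 9.46 FPKM in the wild type, lowest in *ssh1* replicate 2 as *UDT1* was. For *TIP2* it was the meiocyte locus LOC_Os09g32930 (r = 0.934), and for *GAMYB* the leaf marker LOC_Os11g13890 (r = 0.892), which shared the high value in wild-type replicate 3. Among the 18537 tested genes, and counting these loci themselves, 27 had an r at least as high with *MSP1*, 54 with *UDT1*, 312 with *TIP2*, and 105 with *GAMYB*. Between the 4 tested members themselves r ranged from 0.433 (*UDT1* and *GAMYB*) to 0.872 (*UDT1* and *TIP2*). Each r was taken over both genotypes together, so that the difference between them is part of it.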

How the data were processed

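Paired-end libraries were made from panicle RNA with a TruSeq kit and sequenced on a HiSeq2500. The authors mapped the reads with TopHat2 at default parameters to the Nipponbare genome with the MSU7 annotation and calculated the deposited FPKM per gene and replicate with Cuffdiff; read filters, tool versions, and strand handling are not given in the sources used here. The plants carry *indica* and wild rice alleles, so mapping to a *japonica* genome may lower the FPKM of diverged genes in both genotypes. FPKM values are not counts, and the depth of each library is unknown except relative to the others, so no counting intervals are given.

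After 4 duplicated locus IDs were left out, log2(FPKM + 1) was compared with limma 3.58.1 in R 4.3.3 (lmFit, eBayes with a mean-variance trend) over the 18537 genes whose mean reached 1 FPKM. The model held genotype alone, and p-values were adjusted after Benjamini and Hochberg. Confidence intervals are at 95%. The added 1 FPKM understates changes of low genes. The Cuffdiff test works on reads and was not repeated here. The calculation was tested on simulated data. For single values an exact permutation test over the samples was used, two-sided. Relative depth was read from the steps between values below 0.3 FPKM, and values were called whole within 0.05 of a whole number, with multiples of up to 12 tried. Of the 5912 loci with a mean below 1 FPKM and at least 4 values above 0, 67.1% came out whole by this rule.

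The named genes are the 8 members, *SNB*, in each list at most the 2 largest rises and falls past the thresholds, and for each tested member the most similar locus of the lists. LOC_Os04g57490 and LOC_Os01g11430 fall outside this rule and were named after their values were seen. The members, lists, and rules were chosen with earlier results of these data known. The names of the members come with the description of the pathway, and a RefSeq gene table lists all 8 names on the same chromosomes. No sequence and no coordinates are given, because no genome of this build was used here. The alternatives were a pseudocount of 0.1, no minimum mean (loci at 0 in every sample left out) or one of 5 FPKM, median-of-ratios scaling, rescaling to a common sum, quantile normalization, adjusted p limits of 0.01 and 0.05, sample quality weights (with statmod 1.5.0), a fit blocked on the replicate number, and fits without each replicate in turn. The scale relative to the stamen identity loci was added after the data had been seen. Replicates come from separate pools of plants, and nothing pairs equal replicate numbers across genotypes. Plots were drawn with matplotlib 3.10.9.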

Additional observations from a re-analysis of the deposited data

How the results depend on the processing

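Of the 8 regulators, 0 passed the thresholds, and this number was 1, *MSP1*, with sample quality weights and at adjusted p limits of 0.01 and 0.05, and 0 under the other settings, including every fit that left out 1 replicate. At an adjusted p below 0.05 there were 2 members in limma, 1 after median-of-ratios scaling, and 1 to 2 when a replicate was left out. Of the 57 loci of the other lists, 2 passed the thresholds. There were 3 each with quantile normalization, with rescaling to a common sum, and with sample quality weights. There were 1 without the minimum mean, 0 with the replicate block, and 1 with the block at an adjusted p below 0.01. At an adjusted p below 0.01 there were 6, at one below 0.05 there were 8, and 0 to 2 when a replicate was left out. Over all genes, 947 passed, against 1116 with quantile normalization and 1192 with sample quality weights. There were 487 without the minimum mean, and 1968 and 2413 at adjusted p limits of 0.01 and 0.05. When a replicate was left out, 66 to 790 passed, and 0 did with the replicate block. In the blocked fit, 2541 genes had an unadjusted p below 0.05 in limma with a fold change of at least 2. Equal replicate numbers did not deviate together (correlations of -0.103, -0.0732, and -0.169 across genes), so the block joins samples that share only a number. Relative to the stamen identity loci, a scale that moves every gene up by the same amount, the difference of *UDT1* was 0.19 in place of -0.41, with overlapping values. That of *GAMYB* was 0.39 in place of -0.21, without overlap. These changes of sign follow from that shift. LOC_Os11g13890, at -0.19, ranged from -0.32 to 0.01 when a replicate was left out. The value of 0.01 came without wild-type replicate 3, where this locus had 70.8 FPKM. It had 48.2 and 44.4 FPKM in wild-type replicates 1 and 2. Why replicate 3 was higher was not tested. Scaling moved the median log2 fold change of all tested genes from -0.14 to -0.01 (median of ratios). All 8 members kept their direction under the limma settings run for each, a minimum mean of 5 FPKM being run for *MSP1*, *GAMYB*, and *TIP2* alone. *EAT1* is limited by depth, with 1 fragment in all *ssh1* libraries together when the smallest whole numbers are taken. *TDR* is limited by the spread among the wild-type libraries.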
